A study of Mus musculus with 5 samples.

Results

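The genes of the integrins, the laminins and the other main basement membrane glycoproteins were examined in injured mouse kidney. They were chosen by gene name alone, as every integrin alpha and beta chain, every laminin chain, both nidogens (Nid1 and Nid2), perlecan (Hspg2), agrin (Agrn), nephronectin (Npnt) and dystroglycan (Dag1). This gave 43 of the 35478 genes listed, with 26 integrin chains, 11 laminin chains and 6 linkers and other basement membrane genes. The groups were 2 Prdm16fl/fl mice, numbered 1 and 3, and 3 Ksp-Cre/Prdm16fl/fl mice, numbered 1, 2 and 3, with 1 RNA-seq library per mouse, called fl/fl and Ksp-Cre mice below. All 5 were male mice, 7 to 8 weeks old, of strain C57BL/6J;129 by the strain label and C57BL/6J by the sample titles, and both groups carried the floxed Prdm16 alleles. Ksp-Cre drives Cre recombinase in tubular epithelial cells, so the other cells of the kidney were not targeted. All 5 had been through UIRI, a unilateral ischemia-reperfusion injury made by clamping the left renal pedicle for 35 minutes at 38.5°C, and the right kidney was removed on day 10. The injured kidney was taken 11 days after clamping, and no uninjured kidney is analysed here, so the comparison is between genotypes within injury. By the methods, the tissue was kidney cortex.

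A basement membrane is the thin sheet of matrix under an epithelium or around a vessel. Laminins, each made of an alpha, a beta and a gamma chain, polymerise on the cell surface, and nidogen and perlecan tie that network to a second one made of type IV collagen. Integrins, each made of 1 alpha and 1 beta chain, hold the cell to the sheet and to other matrix, and leukocytes and platelets carry integrins of their own for adhesion to vessel walls, to fibrinogen and to other cells. In the kidney the tubular and glomerular basement membranes use different chains, and several chains are known from injured or regenerating epithelium.

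Counts summed to between 14939040 and 16425161 reads per library. CPM below is the count per 1000000 reads after TMM scaling, and FPKM is the deposited value per kilobase of gene and per 1000000 reads. Prdm16 itself stood at 25.3 and 20.0 CPM in the fl/fl mice and at 17.1, 17.0 and 18.0 CPM in the Ksp-Cre mice (adjusted p = 0.259, edgeR), and the count does not separate the floxed exon. Proximal tubule markers were abundant in every library, with 8 genes summing to 6848 and 6581 CPM in the fl/fl mice and to 2427, 2696 and 1364 CPM in the Ksp-Cre mice. Ksp-Cre mouse 3 stood apart from the other 2 mice of its group. Its 10 leukocyte markers summed to 436 CPM, against 1122 and 1041 CPM in mice 1 and 2 and 730 and 1006 CPM in the fl/fl mice. Most of each sum was Lyz2, at 464 and 716 CPM in fl/fl mice 1 and 3. In Ksp-Cre mice 1, 2 and 3, Lyz2 was at 772, 699 and 229 CPM. Among the tested genes of the integrin and basement membrane set, 30 of 41 were lower in mouse 3 than in both mice 1 and 2 (73.2%) and 8 were higher, whereas over all 16394 genes tested 43.7% were lower and 42.5% were higher. Results are therefore given with and without it. Below, mouse 3 without a group name is Ksp-Cre mouse 3, and in a list of 5 values the fl/fl mice 1 and 3 come first, then Ksp-Cre mice 1, 2 and 3 after the word against.

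Most members were somewhat higher in the Ksp-Cre mice, with 29 of 41 log2 fold changes above 0, beside 8857 of 16394 over all genes. None passed the threshold of the main test. No member passed an adjusted p under 0.05 in edgeR's quasi-likelihood test over all genes, where 0.104% of genes passed as higher and 0.872% as lower in the Ksp-Cre mice. Of the 43, 41 passed the filter on low counts, and Itgad and Itga11, with 1 to 4 and 4 to 7 counts per library, were not tested. At an unadjusted p under 0.05, 11 members were higher (26.8% of 41, beside 7.64% of all genes) and 1 was lower (2.44%, beside 11.2% of all genes). DESeq2 gave an adjusted p under 0.05 to 7 members as higher (17.1%, beside 1.98% of all genes) and to 0 as lower (beside 5.56% of all genes). Among these 7 were Itgam, Itgb3, Itgb4, Itga5, Itgb1 and Nid1, and limma on log2 FPKM called 0. All 3 Ksp-Cre mice lay above both fl/fl mice for 14 members (34.1%, beside 20.3% of all genes) and below both for 3 tested members (7.32%, beside 21.3%). The median log2 fold change was 0.21 over the 41 members and 0.04 over all genes tested. Over the members it was 0.15 with an offset for gene length, 0.14 with the mouse number as a block and 0.08 with both. No fl/fl mouse has number 2, so the fits with the block compare only mice 1 and 3 of each group. Without Ksp-Cre mouse 3 it was 0.31. With library size scaling it was 0.34, where the median of all genes was 0.15. In RNA of whole kidney cortex, fewer cells of a type and less RNA per cell cannot be told apart.

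The count of members that passed changed when Ksp-Cre mouse 3 was left out, and not when Ksp-Cre mouse 1 or 2 was left out. Without Ksp-Cre mouse 3, edgeR called 15 members higher (36.6%, beside 7.82% of all genes) and 0 lower (beside 11.0% of all genes, and with 2 at an unadjusted p under 0.05). Among the 15 were Itgam, Itgb3, Itga3, Itga6, Itgb4, Itgb6, Itga1, Itga5, Itgb1, Lamb1, Lamc1, Nid1, Agrn and Dag1. Without Ksp-Cre mouse 1 or Ksp-Cre mouse 2, edgeR called 0 members and 0 genes of all those tested. At an unadjusted p under 0.05, 10 members were higher and 0 to 2 lower in these 2 fits. Both kept Ksp-Cre mouse 3, which stood apart from its group, so their counts are no like comparison with the fit without it. Leaving out an fl/fl mouse leaves 1 in that group, so only effect sizes are given. The median over the members was 0.17 without fl/fl mouse 1 and 0.23 without fl/fl mouse 3. Summed over the 43 members, the level was 3857 and 3763 CPM in the fl/fl mice, 4767 and 5035 CPM in Ksp-Cre mice 1 and 2, and 3985 CPM in mouse 3, which lay close to the fl/fl mice.

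**Figure D1:**
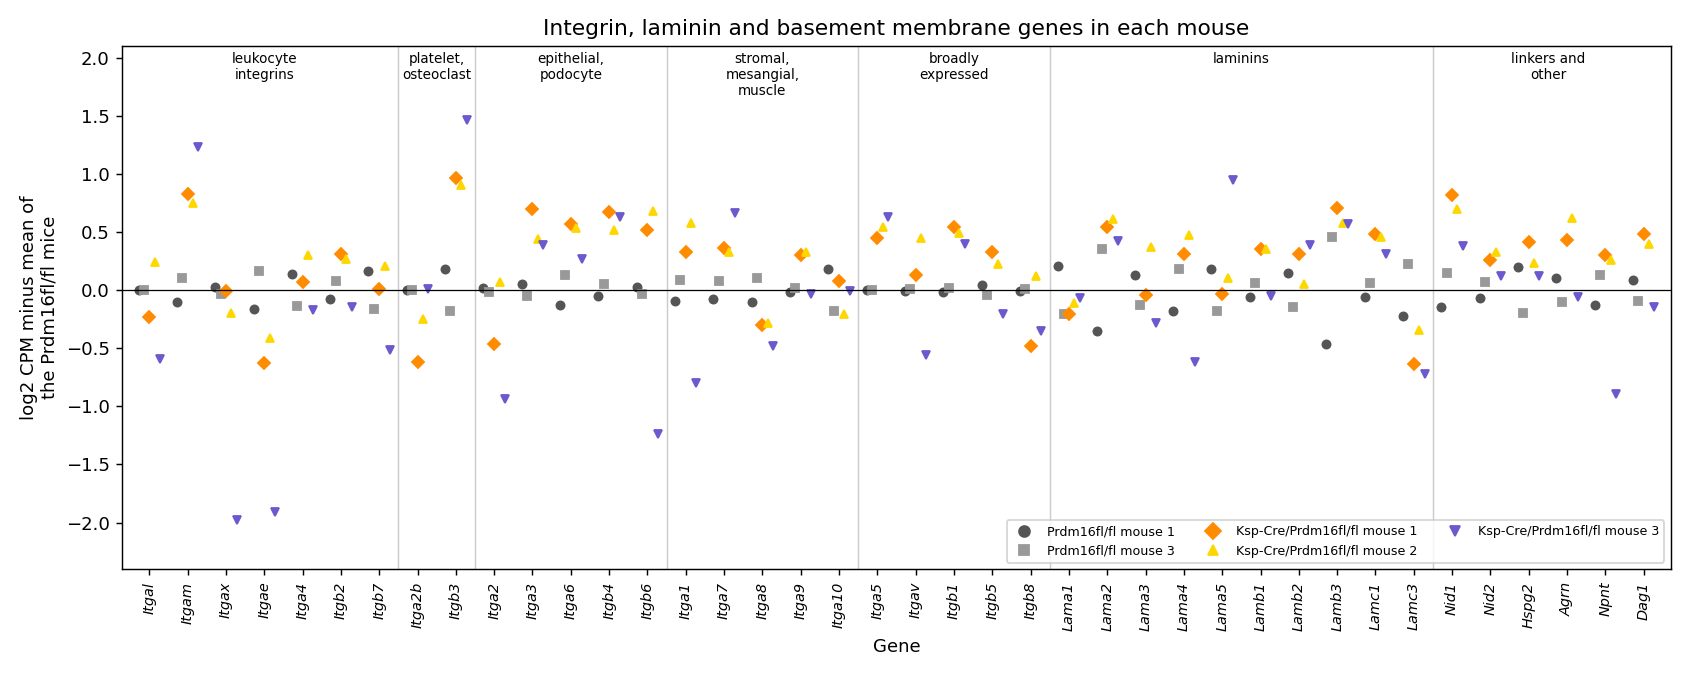
Difference of the log2 CPM of 40 tested members from the fl/fl mean (vertical axis), with 1 point per mouse and the genes grouped by the cell type or role they are known from (horizontal axis). The points of Ksp-Cre mouse 3 mostly lie below those of mice 1 and 2, with Itgax, Itgae and Itgb6 among the lowest, and lie above them in genes such as Itgam, Itgb3 and Lama5.

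**Figure D2:**
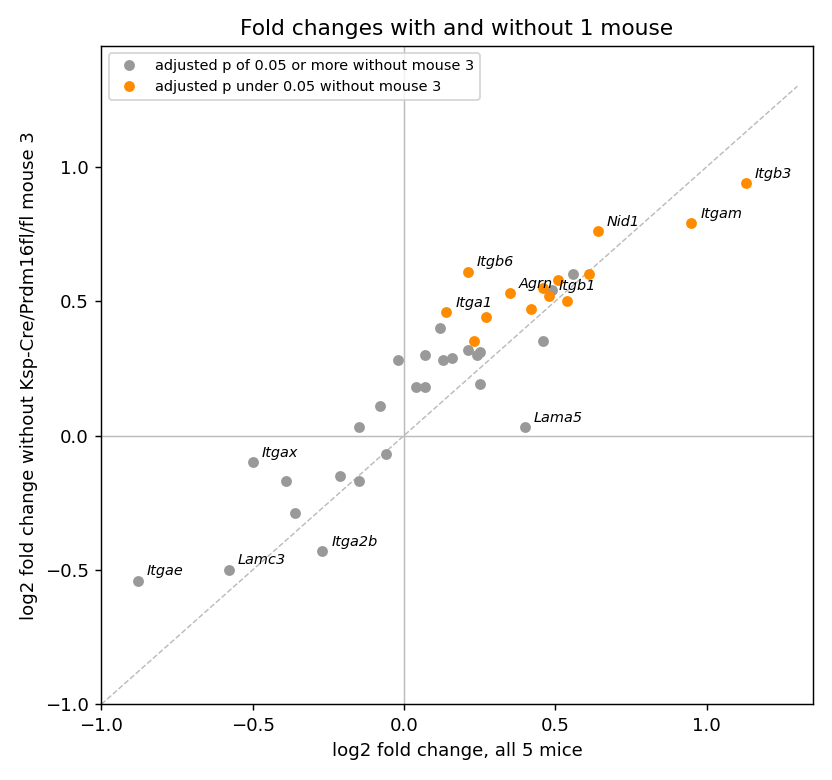
Fitted log2 fold change of 40 tested members with all 5 mice (horizontal axis) against that without Ksp-Cre mouse 3 (vertical axis), with equal values on the dashed line. The orange genes had an adjusted p under 0.05 without that mouse. Itgb6 moved from 0.21 to 0.61 and Lama5 from 0.40 to 0.03.

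Integrin receptors come first, beginning with the chains that many cells share. Itgb1 (chromosome 8, 129412135 to 129460060, plus strand, in the coordinates of the files) is the beta chain that joins most laminin, collagen and fibronectin receptors. It had the highest level per length of the whole set, a mean of 115 FPKM over the 5 mice, above 96.5% of the genes tested. It stood at 383 and 391 CPM in the fl/fl mice and at 560, 544 and 511 CPM in Ksp-Cre mice 1, 2 and 3. The groups did not overlap, and the mean was 387 ± 5.73 CPM (SD, n = 2) in fl/fl mice against 539 ± 25.1 CPM (SD, n = 3). The log2 fold change was 0.48 (standard error, SE, 0.13, adjusted p = 0.130, edgeR), and it stayed between 0.45 and 0.52 when any 1 mouse was dropped.

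Itga5, the alpha chain that joins Itgb1 to make the main fibronectin receptor, lay at 22.3 and 22.2 CPM in the fl/fl mice and at 30.4, 32.4 and 34.6 CPM in the Ksp-Cre mice. Mouse 3 was the highest of the 5, and the groups did not overlap (log2 fold change 0.54, SE 0.12, adjusted p = 0.0989, edgeR). The other broadly expressed chains had overlapping groups. Itgav, the alpha chain of the receptors for vitronectin and for latent TGF-β, was at 400 and 408 CPM in the fl/fl mice and at 442, 553 and 274 CPM in the Ksp-Cre mice, so that mouse 3 was the lowest and mouse 2 the highest of all 5. Of its beta partners, Itgb5 and Itgb8 had log2 fold changes of 0.13 and -0.21.

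The epithelial chains had the highest class median among the integrin classes of more than 2 genes, a log2 fold change of 0.46 over 5 tested genes, with 3 of 5 higher at an unadjusted p under 0.05, beside 7.64% of all genes. Itga6, the alpha chain of the laminin receptors of tubular epithelium, had the highest level per length of the class, a mean of 32.3 FPKM. It was at 144 and 173 CPM in the fl/fl mice and at 235, 229 and 191 CPM in the Ksp-Cre mice, with no overlap and with mouse 3 nearest to the fl/fl mice (log2 fold change 0.46, SE 0.16, adjusted p = 0.198, edgeR). Itgb4, which joins Itga6 in the receptor of hemidesmosomes, stood at 11.6 and 12.5 CPM against 19.2, 17.3 and 18.7 CPM. All 3 Ksp-Cre mice were close to one another and above the fl/fl mice (log2 fold change 0.61, SE 0.15, adjusted p = 0.110, edgeR).

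Itga3 is the laminin receptor chain of podocytes and tubular cells. It was at 79.8 and 74.1 CPM in the fl/fl mice and at 125, 104 and 101 CPM in the Ksp-Cre mice, and the groups did not overlap (log2 fold change 0.51, SE 0.14, adjusted p = 0.129, edgeR). Markers of podocytes lay the other way. Nphs1 (nephrin) was at 53.9 and 50.0 CPM against 28.3, 29.5 and 28.7 CPM and fell (log2 fold change -0.85, adjusted p = 0.0412, edgeR), and all 5 podocyte markers had a log2 fold change below 0. The 5 summed to 687 and 527 CPM in the fl/fl mice and to 383, 391 and 430 CPM in the Ksp-Cre mice, and their part in the value of Itga3 was not tested.

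Itgb6, the epithelial partner of Itgav, was split within the Ksp-Cre group. Its values, singled out after they were seen, were 115 and 110 CPM in the fl/fl mice and 161, 181 and 47.4 CPM in the Ksp-Cre mice. Mice 1 and 2 were above both fl/fl mice, and mouse 3 was below both. The log2 fold change was 0.21 (SE 0.52, adjusted p = 0.861, edgeR) with all 5 mice, 0.61 (adjusted p = 0.00582, edgeR) without mouse 3, and reached -0.11 with another mouse left out. Its adjusted p ranged from 0.00582 to 0.989 over the alternatives. Itga2, a collagen receptor chain, was low, at 2.60 to 5.38 CPM, with overlapping groups. Of 7 markers of injured tubules, such as Havcr1 (Kim-1), 6 were above both fl/fl mice in all Ksp-Cre mice, beside 20.3% of all genes. The other, Cd44, was lowest in mouse 3, at 104 and 117 CPM against 129, 154 and 62 CPM. The 7 summed to 891 and 898 CPM against 1747, 1645 and 1936 CPM, with mouse 3 the highest. That rank came largely from Lcn2, at 110 and 94 CPM against 272, 204 and 658 CPM. Havcr1 was at 283 and 273 CPM against 683, 696 and 472 CPM. Within the Ksp-Cre group, mouse 3 was highest for Lcn2, Krt20 and Sox9 and lowest for Havcr1, Krt8 and Cd44. The 5 epithelial chains summed to 355 and 375 CPM against 543, 536 and 360 CPM, with mouse 3 between the fl/fl mice. That place came from Itgb6, at 47.4 CPM in mouse 3. Itga3, Itga6 and Itgb4 were each above both fl/fl mice in mouse 3. The part of injured tubules in the epithelial values was not tested.

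Of the stromal, mesangial and muscle chains, Itga7 had the only unadjusted p under 0.05. Itga7, the laminin receptor chain of muscle, stood at 16.2 and 18.2 CPM in the fl/fl mice and at 22.1, 21.7 and 27.2 CPM in the Ksp-Cre mice, without overlap and with mouse 3 highest (log2 fold change 0.46, SE 0.16, adjusted p = 0.213, edgeR). Itga1, a collagen receptor chain of mesangial and smooth muscle cells, had the highest level per length of the class, a mean of 15.2 FPKM. Its values were 79.5 and 90.4 CPM against 106, 126 and 48.5 CPM, so mice 1 and 2 were the highest and mouse 3 the lowest of the 5 (log2 fold change 0.14 with all mice, 0.46 without mouse 3). Itga8, the nephronectin receptor chain of mesangial cells, lay below both fl/fl mice in all 3 Ksp-Cre mice, at 13.6 and 15.6 CPM against 11.8, 12.0 and 10.4 CPM, with a log2 fold change of -0.36 (adjusted p = 0.318, edgeR). Itga9 and Itga10 had log2 fold changes of 0.21 and -0.06 with overlapping groups. The 7 fibroblast and pericyte markers summed to 445 and 647 CPM against 977, 934 and 662 CPM and the 5 endothelial markers to 212 and 200 CPM against 171, 141 and 205 CPM, and their part in these values was not tested.

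Leukocyte chains had a median log2 fold change of -0.08 over 7 tested genes, with a direction that depended on the mice and the scaling. It was 0.11 without mouse 3, 0.08 without fl/fl mouse 1, 0.04 with library size scaling and 0.07 and 0.09 with limma on the 2 log2 FPKM scales. Itgb2, the beta chain that joins Itgal, Itgam, Itgax and Itgad, had the highest level per length of the class, a mean of 12.3 FPKM. It was at 32.2 and 35.9 CPM in the fl/fl mice and at 42.1, 41.2 and 30.6 CPM in the Ksp-Cre mice, with mouse 3 the lowest of the 5 and the groups overlapping (log2 fold change 0.16, adjusted p = 0.668, edgeR). Its alpha partners differed from one another. Itgam, the alpha chain of Mac-1 on neutrophils, monocytes and macrophages, stood at 22.2 and 25.7 CPM against 42.6, 40.2 and 56.3 CPM, a mean of 24.0 ± 2.43 CPM (SD, n = 2) against 46.4 ± 8.67 CPM (SD, n = 3). All 3 Ksp-Cre mice were above both fl/fl mice, and mouse 3 was the highest. The log2 fold change was 0.95 (SE 0.19, adjusted p = 0.0726, edgeR), a fold of 1.93, with 0.79 to 1.06 when each mouse was left out. DESeq2 gave it an adjusted p of 0.00182, and over all alternatives its adjusted p ranged from 0.00182 to 0.525.

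Itgax encodes CD11c, an alpha chain of dendritic cells and some macrophages. It lies next to Itgam on chromosome 7, with 11034 bases and no listed gene between them. Its values, singled out after they were seen, were 33.8 and 32.3 CPM in the fl/fl mice and 32.8, 28.7 and 8.26 CPM in the Ksp-Cre mice. Mice 1 and 2 were near the fl/fl mice and mouse 3 was far below all of them (log2 fold change -0.50, SE 0.52, adjusted p = 0.638, edgeR; -0.10 without mouse 3). The ratio of Itgam to Itgax, both in FPKM, was 0.629 and 0.760 in the fl/fl mice and 1.24, 1.34 and 6.51 in Ksp-Cre mice 1, 2 and 3, so mouse 3 held the most Itgam and the least Itgax. Itgae, the partner of Itgb7 on intraepithelial T cells and some dendritic cells, was also lowest in mouse 3, at 1.07 CPM against 2.78 and 3.25 CPM in mice 1 and 2 and 3.91 and 4.88 CPM in the fl/fl mice (log2 fold change -0.88, adjusted p = 0.368, edgeR). Itgal, Itga4 and Itgb7 had log2 fold changes of -0.15, 0.07 and -0.08 with overlapping groups.

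The leukocyte markers moved with these values in part. Ptprc, the pan-leukocyte marker, was at 93.6 and 95.0 CPM in the fl/fl mice and at 109, 116 and 53.9 CPM in the Ksp-Cre mice, and Adgre1, the macrophage marker F4/80, was at 36.5 and 40.6 CPM against 51.7, 51.0 and 12.3 CPM. Both were lowest in mouse 3, as were Lyz2 and Cd3e, whereas Cd68, Csf1r and Flt3 were higher in mouse 3 than in fl/fl mouse 1, with Cd68 at 27.4 and 21.2 CPM and Csf1r at 103 and 102 CPM. S100a8, a neutrophil and monocyte marker, was low but above both fl/fl mice in all 3 Ksp-Cre mice, at 1.69 and 0.646 CPM against 2.50, 3.84 and 2.67 CPM. Of the 10 leukocyte markers, 9 had overlapping groups, Cd79a was under 1 CPM in every mouse, and the part of leukocyte number in the values of Itgam and Itgax was not tested.

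The regions at the starts of Itgam and Itgax are shown because these neighbours, which encode partners of the same beta chain, went different ways in 1 mouse. Both sequences are RefSeq windows of 250 bases before and 50 bases after the gene start on GRCm38.p6, a build that is not that of the files, and 28 of the 43 members had such a window. Capitals mark, on either strand, GAGGAA (the core bound by the myeloid factor PU.1), TGANTCA (the AP-1 core) and CAGACA (a Smad-binding element). The Itgam window is chr7:128062390-128062689 and the Itgax window chr7:128129300-128129599, both on the plus strand.
Itgam: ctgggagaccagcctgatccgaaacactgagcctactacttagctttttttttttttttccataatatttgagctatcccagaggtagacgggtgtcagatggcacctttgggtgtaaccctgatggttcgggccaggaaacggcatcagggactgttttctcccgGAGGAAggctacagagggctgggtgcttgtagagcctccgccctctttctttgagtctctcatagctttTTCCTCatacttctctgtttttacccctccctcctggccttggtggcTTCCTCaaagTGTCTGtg
Itgax: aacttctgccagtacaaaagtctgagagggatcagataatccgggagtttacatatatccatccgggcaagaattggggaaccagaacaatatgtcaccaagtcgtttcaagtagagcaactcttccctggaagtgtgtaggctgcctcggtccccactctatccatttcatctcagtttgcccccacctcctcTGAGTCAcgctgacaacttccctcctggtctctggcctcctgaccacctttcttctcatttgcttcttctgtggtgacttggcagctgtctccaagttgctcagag
In the Itgam window GAGGAA was found at 3 places, which begin 84 and 15 bases before the start and 33 bases after it, and CAGACA at 1 place, and none of the matches overlapped. The Itgax window held 1 TGANTCA match, 56 bases before the start, and neither of the other motifs. Over all 32851 windows, 28.3% held GAGGAA, 7.81% TGANTCA and 21.0% CAGACA. Among the 34 windows of members these shares were 44.1%, 8.82% and 23.5%. A match is a string of letters in the window and says nothing about binding in these kidneys.

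Platelet and osteoclast chains were low and split. Itgb3, which joins Itga2b on platelets and Itgav on osteoclasts, endothelium and other cells, stood at 6.67 and 5.17 CPM in the fl/fl mice and at 11.6, 11.1 and 16.4 CPM in the Ksp-Cre mice. It had the highest log2 fold change of the set, 1.13 (SE 0.26, adjusted p = 0.0993, edgeR), a fold of 2.20, and mouse 3 was again the highest. DESeq2 gave it an adjusted p of 0.00647, in a range over all alternatives from 0.00647 to 0.612. Itga2b had the higher mean level per length of this pair, 2.60 FPKM, with 9.98 and 10.0 CPM against 6.47, 8.39 and 10.1 CPM and overlapping groups (log2 fold change -0.27, adjusted p = 0.574, edgeR). The ratio of Itgb3 to Itga2b in FPKM was 0.386 and 0.297 in the fl/fl mice and 1.03, 0.763 and 0.939 in the Ksp-Cre mice, without overlap. This ratio was not among the planned results, and Itgb3 alone already separated the groups, so it adds no separate result. The 5 platelet markers summed to 6.94 and 7.89 CPM against 10.7, 15.4 and 8.80 CPM. Of these, Ppbp, Gp9 and Gp1bb were higher in all 3 Ksp-Cre mice than in both fl/fl mice, and Pf4 and Gp1ba had overlapping groups. Ppbp was at 0.337 and 0.215 CPM against 1.76, 3.31 and 0.533 CPM (log2 fold change 2.72, adjusted p = 0.187, edgeR), while Gp9 and Gp1bb stayed under 1 CPM in every mouse and were not tested. Pf4 was at 3.33 to 8.68 CPM over the 5 mice. The part of platelets in the value of Itgb3 was not tested. Erythroid markers, a sign of blood in the tissue, were higher in all 3 Ksp-Cre mice for 5 of 5 genes and summed to 6.67 and 10.8 CPM against 151, 150 and 40.5 CPM. Their part in the values of Itgb3 and Itgam was not tested.

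**Figure D3:**
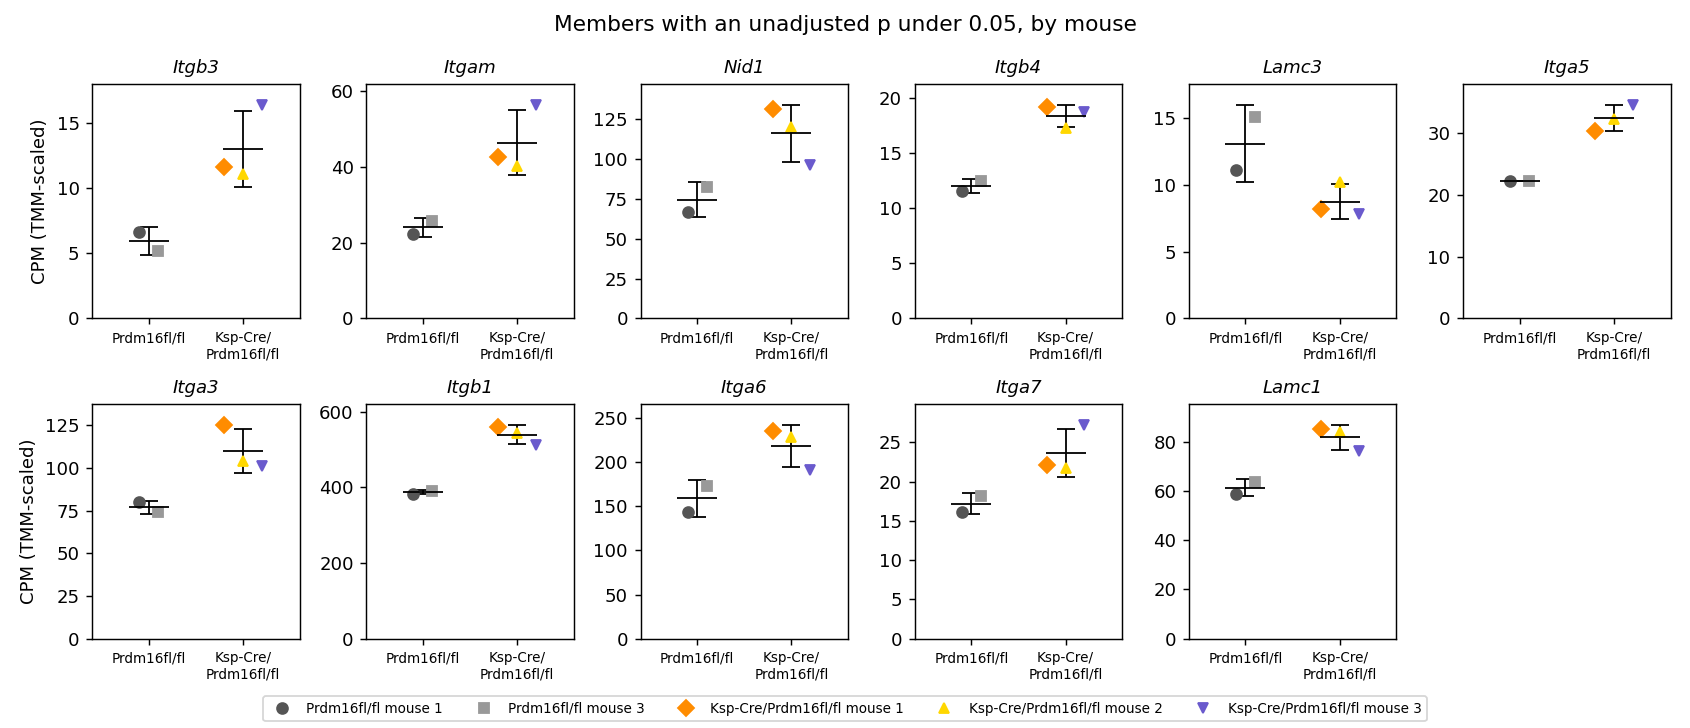
CPM (vertical axes, from 0) in each mouse for 11 members with an unadjusted p under 0.05, in order of the size of the log2 fold change. Bars are group means and error bars SD (n = 2 and n = 3), and the 3 Ksp-Cre mice lie above both fl/fl mice in every panel but that of Lamc3, where they lie below.

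The laminins, ligands of many of these receptors, had a median log2 fold change of 0.25 over 11 chains, with 2 of 11 higher and 1 lower at an unadjusted p under 0.05, beside 7.64% and 11.2% of all genes. A single lower chain is near the share over all genes. Lamc1, the gamma chain of most laminins, was at 59.0 and 63.7 CPM against 85.3, 84.1 and 76.1 CPM, without overlap (log2 fold change 0.42, SE 0.11, adjusted p = 0.135, edgeR). Lamc3, a rarer gamma chain, was the only member lower at an unadjusted p under 0.05, at 11.1 and 15.1 CPM against 8.23, 10.2 and 7.80 CPM (log2 fold change -0.58, SE 0.22, adjusted p = 0.244, edgeR). Its groups did not overlap, but fl/fl mouse 1 and Ksp-Cre mouse 2 were close, and the log2 fold change was -0.79 to -0.34 when any 1 mouse was dropped.

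Lamb1, the beta chain of most tubular laminin, had the highest level per length of the class, a mean of 42.1 FPKM. It stood at 212 and 231 CPM in the fl/fl mice and at 283, 282 and 214 CPM in the Ksp-Cre mice, with mice 1 and 2 above and mouse 3 between the fl/fl values (log2 fold change 0.23, adjusted p = 0.504, edgeR). Lama5, the main alpha chain of adult kidney and a component of the mature glomerular basement membrane, was singled out after its values were seen, because mouse 3 was the high one there. It was at 397 and 311 CPM against 343, 376 and 679 CPM, so mice 1 and 2 lay within the range of the fl/fl mice (log2 fold change 0.40, adjusted p = 0.549, edgeR; 0.03 without mouse 3). Lama3 and Lamb3, chains of epithelial laminin, had log2 fold changes of 0.04 and 0.56, and neither passed an unadjusted p under 0.05. Lama2, known from muscle, and Lamb3 had all 3 Ksp-Cre mice above the fl/fl mice, but in both genes fl/fl mouse 1 was well below fl/fl mouse 3 (12.3 against 19.9 CPM for Lama2, 3.78 against 7.25 CPM for Lamb3). Lama1, Lama4, known from vessels, and Lamb2, the beta chain of the mature glomerular basement membrane, had log2 fold changes of -0.15, 0.12 and 0.25 with overlapping groups.

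Since FPKM is per length, the makeup of each kind of chain could be compared within a library. Lama5 made up 82.0% and 78.6% of the summed FPKM of laminin alpha chains in the fl/fl mice and 79.1%, 78.2% and 89.6% in the Ksp-Cre mice. Lamb1 made up 65.9% to 75.8% of the beta chains over all mice, and neither share separated the groups.

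Among the integrin beta chains, Itgb1 had 46.5% and 47.5% of the summed FPKM in the fl/fl mice and 52.8%, 50.1% and 59.9% in the Ksp-Cre mice (two-sided exact permutation p = 0.2). Itgb8 had 14.4% and 14.6% against 8.07%, 11.9% and 11.0% (two-sided exact permutation p = 0.1). Itgb6 held 10.2% to 12.7% in 4 mice and 4.26% in mouse 3. With 10 possible splits of the mice, 0.1 is the smallest p the exact test can give. It was reached by 1 of the 16 chains compared, Itgb8, and its Benjamini-Hochberg adjusted value was 0.600, so no share passed a threshold of 0.05.

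**Figure D4:**
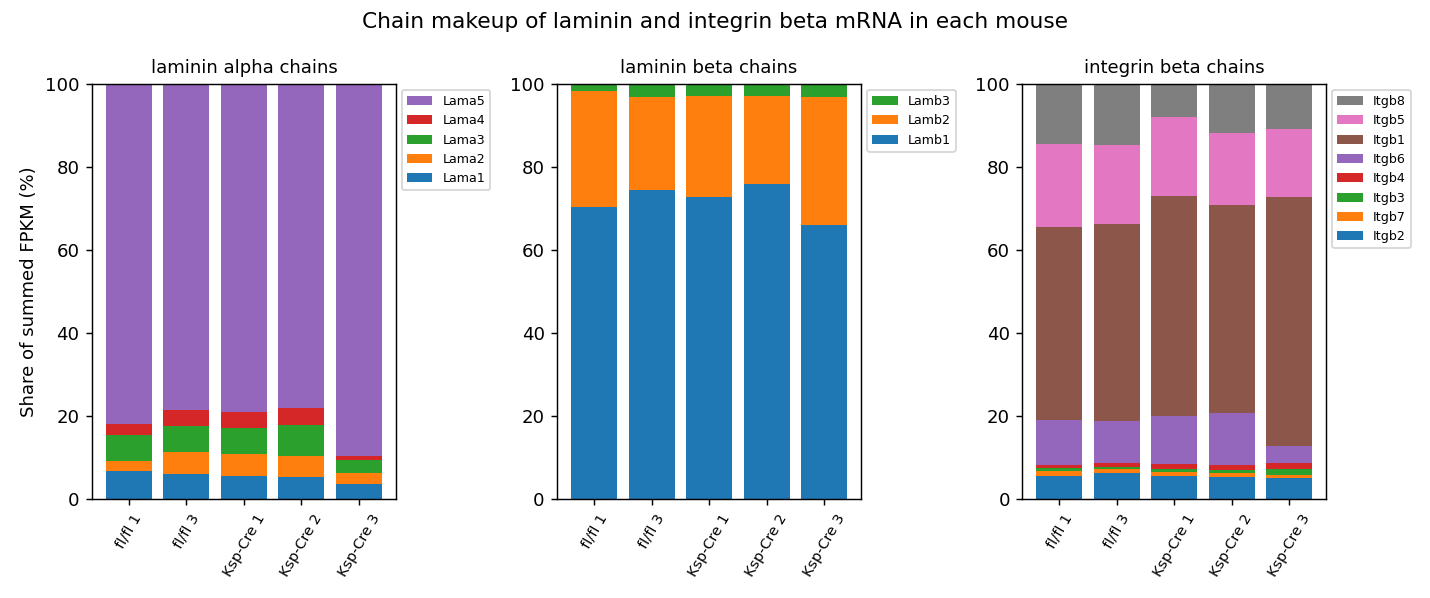
Share of each chain in the summed FPKM of its kind (vertical axis, percent) in each mouse, with the mouse number after the group. In the alpha chain panel mouse 3 stands out with 89.6% Lama5, and in the integrin panel with 4.26% Itgb6.

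The linkers and other basement membrane genes had a median log2 fold change of 0.26 over 6 genes, and 5 of 6 were above 0. Nid1, the nidogen that bridges laminin and type IV collagen, was at 66.5 and 82.2 CPM in the fl/fl mice and at 131, 120 and 96.3 CPM in the Ksp-Cre mice. The groups did not overlap, and mouse 3 was nearest to the fl/fl mice (log2 fold change 0.64, SE 0.18, adjusted p = 0.138, edgeR; 0.76 without mouse 3). Nid2, its close relative, had a log2 fold change of 0.24 (adjusted p = 0.377, edgeR), at 26.7 and 29.3 CPM against 33.5, 35.1 and 30.3 CPM. Agrn, the heparan sulfate proteoglycan of the glomerular basement membrane, had the highest level per length of the class, a mean of 47.5 FPKM. It stood at 550 and 481 CPM against 694, 788 and 493 CPM, with mouse 3 between the fl/fl mice (log2 fold change 0.35, adjusted p = 0.450, edgeR). Dag1, the dystroglycan that binds laminin on the cell surface, was at 187 and 165 CPM against 246, 232 and 158 CPM, with mouse 3 the lowest of the 5 (log2 fold change 0.27, and 0.44 without mouse 3). Npnt, the ligand of Itga8 with Itgb1, was at 113 CPM in mouse 3 and at 192 to 257 CPM in the other 4 mice. Hspg2 had a log2 fold change of 0.25 with overlapping groups.

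Partner genes outside the set were taken from 3 lists. Of the 26 genes of the adhesion complex that ties integrins to actin, 0 passed an adjusted p under 0.05 in edgeR. At an unadjusted p under 0.05, 6 were higher and 0 lower, beside 7.64% and 11.2% of all genes. The median log2 fold change of the 26 was 0.18. The highest log2 fold change was that of Vasp, an actin polymerisation factor, at 55.6 and 50.2 CPM against 82.6, 80.6 and 75.8 CPM (0.59, adjusted p = 0.0685, edgeR). The lowest was that of Tln2, a talin, at 70.8 and 59.4 CPM against 49.1, 45.4 and 21.1 CPM (-0.76, adjusted p = 0.311, edgeR). Both had groups that did not overlap. DESeq2 called 2 of the 26 higher (beside 1.98% of all genes), Vasp and Fermt1, a kindlin of epithelium.

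Of 16 integrin ligands, 14 were tested, and 0 passed the adjusted threshold in edgeR. At an unadjusted p under 0.05, 8 were higher and 0 lower, beside 7.64% and 11.2% of all genes. The median log2 fold change of the 14 was 0.75. Fgb, the fibrinogen beta chain, had the highest log2 fold change, 3.27 (adjusted p = 0.159, edgeR), at 7.55 and 8.18 CPM against 28.2, 28.1 and 172 CPM. All 3 Ksp-Cre mice were above the fl/fl mice, but mouse 3 was far above the rest, and without it the log2 fold change was 1.84. Fga and Fgg were also highest in mouse 3, with log2 fold changes of 2.33 and 2.28, which were 0.98 and 1.11 without mouse 3. The lowest was Icam2, an endothelial ligand of Itgal with Itgb2, at -0.13 with overlapping groups. The following 2 ligands were chosen after their values were seen. Spp1 (osteopontin), a ligand of Itgav receptors, was at 12277 and 13442 CPM against 27016, 28061 and 33774 CPM (log2 fold change 1.20, adjusted p = 0.0741, edgeR), and Tnc (tenascin C) at 24.1 and 31.1 CPM against 83.6, 74.3 and 39.1 CPM (log2 fold change 1.25, adjusted p = 0.133, edgeR). DESeq2 called 3 ligands higher (beside 1.98% of all genes), Spp1, Tnc and Fgb.

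Of 17 other basement membrane genes, 0 passed the adjusted threshold in edgeR. At an unadjusted p under 0.05, 5 were higher and 3 lower, beside 7.64% and 11.2% of all genes. The median log2 fold change of the 17 was 0.41. Ntn4, a netrin that binds laminin, had the highest log2 fold change (0.76, adjusted p = 0.350, edgeR) with overlapping groups, and Tinag, a tubular basement membrane antigen, the lowest, at 148 and 162 CPM against 114, 116 and 71.5 CPM (-0.63, adjusted p = 0.215, edgeR). The type IV collagen chains, chosen after their values were seen, went both ways. Col4a1 and Col4a2, which form the network found in nearly all basement membranes, had log2 fold changes of 0.54 and 0.59 (adjusted p = 0.134 and 0.0786, edgeR). Col4a3 and Col4a4, chains of the network of the glomerular and some tubular basement membranes, had -0.62 and -0.40 (adjusted p = 0.146 and 0.188, edgeR). For all 4, the 3 Ksp-Cre mice were all above or all below the fl/fl pair. The ratio of Col4a1 to Col4a3 in FPKM was 1.48 and 1.41 in the fl/fl mice and 4.16, 3.35 and 2.45 in the Ksp-Cre mice. Among the 17, DESeq2 called Col4a1 and Col4a2 higher (beside 1.98% of all genes) and Col4a3 lower (beside 5.56%). The podocyte markers given above were lower in the same mice, as was Col4a3, and their part in its value was not tested.

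**Figure D5:**
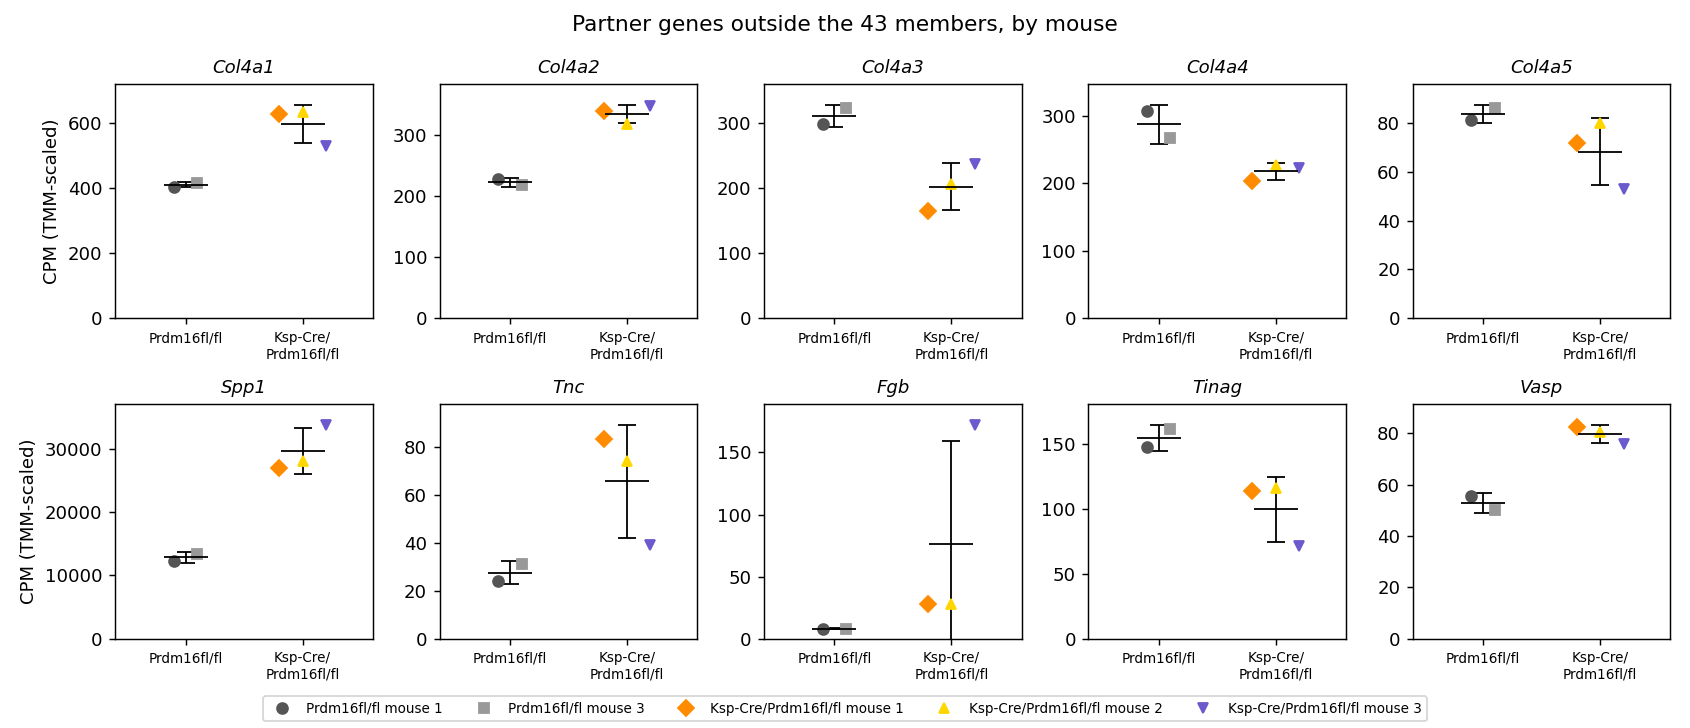
CPM in each mouse (vertical axes, from 0) for 10 partner genes outside the set, with group means as bars and SD as error bars (n = 2 and n = 3), cut off at 0 for Fgb. Col4a1 and Col4a2 are higher and Col4a3 and Col4a4 lower in all 3 Ksp-Cre mice, and mouse 3 stands alone at 172 CPM of Fgb.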

How the data were processed

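Kidney RNA of 5 mice was analysed, grouped by genotype from the sample labels. The authors deposited raw read counts per gene, and beside them TPM and FPKM made from those counts. The submitters' processing notes name CASAVA, featureCounts 2.0.1, DESeq2 1.16.1 and the human build hg38. The aligner and strand setting are not given in the sources used here, so overlapping and antisense genes are uncertain. Coordinates are those of the files and differ from GRCm38. The lines of 5 broken genes were rejoined.

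The 16394 genes kept by filterByExpr (edgeR 4.0.16, R 4.3.3) were TMM-scaled. The genotypes were compared with the quasi-likelihood test and no covariates, with Benjamini-Hochberg adjustment over all of them and a threshold of 0.05. Libraries were separate mice, and no pair was a duplicate (chi-square per degree of freedom at least 9.89). Depth was 14939040 to 16425161 counts, and the number of mice limits precision more than counting does. Tests were first run on simulated data. Chain shares were compared with a two-sided exact permutation test over the mice.

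Some items are not reported here, and the members otherwise are all named. Values in each mouse are given for members with an unadjusted p under 0.05 and for the member with the highest mean FPKM of each class, and any other member so described was picked with its values in view. Of each partner list, the highest and the lowest log2 fold change are named, for genes whose mean log2 CPM was 1 or more. The members, classes and lists were chosen with earlier results of these data known, and no set test was made. Alternatives were DESeq2 1.42.0, other filters and scalings, limma 3.58.1 on log2(FPKM + 1) and log2(FPKM + 0.1), a loess offset for gene length (span 0.3), the mouse number as a block, and leaving out each mouse. The fit of partner genes without Ksp-Cre/Prdm16fl/fl mouse 3 was added after seeing the data. Python 3.11.15, pandas 2.3.3 and matplotlib 3.10.9 were used.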

Additional observations from a re-analysis of the deposited data

How the results depend on the processing

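The count of members called higher was 0 in the main edgeR test, 7 with DESeq2 and 2 (Itgam among them) with no filter beyond 1 count. It was 0 without Ksp-Cre/Prdm16fl/fl mouse 1 or 2 and 15 without Ksp-Cre/Prdm16fl/fl mouse 3. It was 0 with at least 10 counts in every library, with library size, upper quartile or RLE scaling, with limma on either log2 FPKM scale and with the gene length offset. No alternative called a member lower. Over all genes the main test called 17 higher and 143 lower, DESeq2 311 and 872, no filter 63 and 408, library size scaling 14 and 37, limma with a pseudocount of 1 18 and 51 and with 0.1 15 and 34, the length offset 12 and 69, and the fit without mouse 3 1266 and 1787.

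Partner genes called higher with DESeq2 were 2 of the adhesion complex, 3 ligands and 2 basement membrane genes, with 1 basement membrane gene lower. Without mouse 3, a fit chosen after seeing the data, they were 6, 9 and 8 higher, with 2 adhesion complex and 3 basement membrane genes lower. Over all genes, DESeq2 called 1.98% higher and 5.56% lower, and edgeR without mouse 3 called 7.82% and 11.0%. The laminin median was 0.25 in the main test, 0.36 with library size scaling, 0.35 with the replicate block, 0.34 and 0.36 with limma, 0.18 with the length offset and 0.17 to 0.35 with each mouse left out.

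Of 41 members, 30 kept their direction under every alternative run. Library size scaling, which moved the median of all genes from 0.038 to 0.15, turned Itgb7 (0.04), Itga10 (0.05) and Npnt (0.11). Limma turned Itgb7 (0.02 and 0.01), Itga10 (0.03 and 0.06) and Npnt (0.00 and 0.00), and upper quartile scaling turned Npnt (0.00). The length offset turned Itga4 (-0.00), Itgav (-0.02) and Lama3 (-0.04). The tested members were longer than other genes, with a median merged exon length of 5980 against 3646 bases. With each mouse left out, Itgal ranged from -0.40 to 0.03, Itga4 from -0.07 to 0.22, Itgb7 from -0.24 to 0.11, Itgb6 from -0.11 to 0.61, Itga1 from -0.13 to 0.46, Itga10 from -0.23 to 0.14, Itgav from -0.17 to 0.30, Lama1 from -0.34 to 0.08, Lama3 from -0.16 to 0.18, Lama4 from -0.09 to 0.40 and Npnt from -0.21 to 0.28. The cause of these turns was not tested.

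The deviations of the same-numbered pairs had a correlation of 0.00 and -0.02. Deviations of the 2 fl/fl mice mirror each other, so these values cannot show whether such pairs shared more than a number. By the methods, controls were littermates. Mouse number 2 occurs only in the Ksp-Cre group, so the replicate block leaves a comparison of mice 1 and 3 of each group. With so few mice, little is left to estimate the spread from, and the 0 genes and 0 members that passed decide nothing. With the replicate block, Itga4 was at -0.05, Itgb6 -0.36, Itga1 -0.24, Itga10 0.03, Itgav -0.22, Lama3 -0.16 and Lama4 -0.14. With the block and the length offset together, Itga4 was at -0.11, Itgb6 -0.42, Itga1 -0.30, Itgav -0.28, Lama3 -0.22 and Lama4 -0.21. With 2 and 3 mice, differences between single members smaller than the spread between mice were not detectable.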
